A study of Mus musculus with 16 samples.

Results

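The genes described here encode the proteins of the mitochondrial ribosome, and their RNA was measured in mouse alveolar type II cells kept in high oxygen or in room-air oxygen. Members were the genes whose names on the array begin with Mrpl or Mrps followed by a digit, pseudogenes left out. They came to 76 genes on 106 probes, of 34832 genes on the array. Each gene was read from its probe with the highest mean signal over all arrays, a choice that did not use the oxygen or time groups.

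The series compares hyperoxia for 24 h (85% O2), normoxia for 24 h (21% O2), hyperoxia for 6 h (85% O2) and normoxia for 6 h (21% O2), with 4 one-colour Agilent arrays in each group, 16 in all. Every sample is total RNA from primary alveolar type II cells of the lung of C57BL/6 mice, carrying no labelled allele or agent other than the oxygen level. The mice's age and the number pooled are not given in the sources used here, nor do the labels say that the 4 samples of a group came from separate mice or cultures, so p-values measure only the spread between these samples. All values below are log2 signals less the 75th percentile of the array, called the log2 level. A gene was called higher or lower where its limma adjusted p was under 0.05.

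The mitochondrial ribosome translates the few proteins that mitochondrial DNA encodes, all of them core subunits of the respiratory chain and ATP synthase. Its ribosomal RNAs come from mitochondrial DNA, whereas all its proteins are encoded in the nucleus, made in the cytosol and imported. Some of these proteins descend from bacterial ribosomal proteins and others were gained in the mitochondrion. Alveolar type II cells make surfactant, and are the progenitors of the flat type I cells of the gas exchange surface.

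By subunit, 49 members belong to the large subunit and 26 to the small one. Mrps30 and Mrps18a keep small-subunit names, although their proteins sit in the large subunit, where they are counted here. Mrps36, the remaining member, is counted apart, because its protein is now placed in the 2-oxoglutarate dehydrogenase complex. Among the ribosomal members, 45 have a bacterial counterpart, 27 are specific to mitochondria and 3 are the paralogues of 1 bacterial protein (Mrps18a, Mrps18b and Mrps18c). Members lie on many chromosomes, with 10 on chromosome 11 and 8 on chromosome 17.

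RefSeq promoters (GRCm38.p6), from 250 bases before to 50 bases after the start of each gene, were at hand for 67 of the 76 members. The promoters of 4 members are shown because their genes are among the 6 whose oxygen effect differed between the times and each holds a motif of a factor known from genes of mitochondrial function. Capitals mark the motif matches. Mrpl12 (chr11:120484387-120484686, plus strand) and Mrpl45 (chr11:97315466-97315765, plus strand) hold the letters GCGCANGCG of nuclear respiratory factor 1 (NRF1), on either strand. Mrpl34 (chr8:71464676-71464975, plus strand) holds CCGGAAG, the core bound by ETS factors such as GABP. Mrpl35 (chr6:71823735-71824034, minus strand) holds AAGATGGCG, the start of a motif of YY1.
Mrpl12 promoter: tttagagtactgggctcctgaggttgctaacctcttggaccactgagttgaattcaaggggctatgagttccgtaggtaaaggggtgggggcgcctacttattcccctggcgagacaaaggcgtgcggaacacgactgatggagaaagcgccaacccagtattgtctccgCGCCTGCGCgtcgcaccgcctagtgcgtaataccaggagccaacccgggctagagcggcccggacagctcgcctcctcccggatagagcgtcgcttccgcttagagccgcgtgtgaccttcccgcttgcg
Mrpl45 promoter: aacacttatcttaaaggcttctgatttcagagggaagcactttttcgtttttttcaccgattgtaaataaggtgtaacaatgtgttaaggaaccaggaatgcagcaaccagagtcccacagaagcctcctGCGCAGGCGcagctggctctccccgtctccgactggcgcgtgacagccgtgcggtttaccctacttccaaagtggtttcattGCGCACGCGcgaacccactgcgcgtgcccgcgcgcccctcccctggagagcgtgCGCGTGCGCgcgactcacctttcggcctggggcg
Mrpl34 promoter: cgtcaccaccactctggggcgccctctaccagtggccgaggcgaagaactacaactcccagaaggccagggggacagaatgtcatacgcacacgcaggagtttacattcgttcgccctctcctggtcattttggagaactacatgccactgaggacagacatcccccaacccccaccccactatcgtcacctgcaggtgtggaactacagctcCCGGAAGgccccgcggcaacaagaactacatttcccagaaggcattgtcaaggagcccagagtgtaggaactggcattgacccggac
Mrpl35 promoter: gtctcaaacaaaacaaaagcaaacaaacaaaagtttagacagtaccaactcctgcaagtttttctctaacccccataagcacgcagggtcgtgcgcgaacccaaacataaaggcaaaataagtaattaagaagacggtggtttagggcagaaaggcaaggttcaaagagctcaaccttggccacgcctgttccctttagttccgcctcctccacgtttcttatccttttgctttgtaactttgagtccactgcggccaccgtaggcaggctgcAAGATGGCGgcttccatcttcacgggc
The 60-base probe that reads Mrpl1, the member with the largest change of oxygen effect between the times, is shown as the kind of sequence each log2 level was read from (mm9, chr5:96667890-96667949, plus strand, per the file headers).
Mrpl1 probe: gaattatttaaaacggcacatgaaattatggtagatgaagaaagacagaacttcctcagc

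Searched on both strands, the NRF1 letters occurred in the promoters of 15 of the 67 members (22.4%), against 7.03% of all 27025 genes with a promoter of this length and 15.6% of 64 cytosolic ribosomal protein genes. The ETS core occurred in 24 members (35.8%), against 9.93% of all genes and 40.6% of cytosolic ribosomal protein genes. The YY1 letters occurred in 8 members (11.9%), against 1.64% of all genes and 6.25% of cytosolic ribosomal protein genes. At least 1 of the motifs was in 40 members (59.7%), against 16.5% of all genes and 57.8% of cytosolic ribosomal protein genes. Among 17492 protein-coding genes the shares were 9.63% for NRF1, 12.9% for ETS, 2.14% for YY1 and 21.8% for any. A match describes the letters only. Among the 15 members with NRF1 letters, 2 were called higher and 1 lower in hyperoxia at 24 h, among the 24 with the ETS core 1 was higher and 1 lower, and among the 8 with the YY1 letters none was higher and 3 were lower. Of the 27 members with none of the motifs, Mrpl1 and Mrps6 among them, 3 were called higher and 2 lower. Of all genes tested, 15.5% were called higher and 12.8% lower.

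All 76 members were well above background on all 16 arrays, so the filter on dim probes removed none. The 75th percentile signal was 556 to 801 on the 24 h arrays and 899 to 1021 on the 6 h arrays, and 53.6 to 69.0% of probes per array were well above background. No spot was saturated. The 24 h arrays shared 1 slide and the 6 h arrays the other, so time and slide cannot be told apart, and on each slide hyperoxia took 1 row and normoxia the other, so that oxygen level and row cannot be told apart either. The number of arrays limits the precision.

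The labelled cell type was checked against its markers. Of 9 type II markers, 7 were well above background on all 16 arrays, among them the surfactant protein genes Sftpc and Sftpb. Slc34a2, the phosphate transporter gene of type II cells, was well above background on no array. All 6 fibroblast and smooth muscle markers, Col1a1 and Acta2 among them, were well above background on all 16 arrays. At 24 h the summed linear level of the type II markers was 28.8 to 35.7 in hyperoxia and 38.8 to 44.3 in normoxia, in units of the array's 75th percentile. The type II markers went both ways: of 8 tested, Lamp3 (-1.03), Sftpb (-0.95) and Etv5 (-0.79) were called lower and Abca3 (0.68) higher on the log2 scale, while Sftpa1 (0.79), Sftpc (0.45), Sftpd (0.45) and Napsa (-0.08) did not pass. The fibroblast and smooth muscle sum was 1408 to 1536 in hyperoxia and 1543 to 1779 in normoxia. The leukocyte sum was 122 to 125 in hyperoxia and 103 to 120 in normoxia. The club and ciliated sum was 1.53 to 1.75 in hyperoxia and 0.913 to 1.39 in normoxia. None of these 4 pairs of ranges overlapped, while those of the type I and endothelial markers did. Gene by gene, however, none of the 6 fibroblast and smooth muscle markers and none of the 5 leukocyte markers passed limma's test, and Pdgfra stood at 0.57 against the direction of the fibroblast sum. Of the 2 club and ciliated markers, Scgb1a1 (0.78) was called higher. Their part in the members' differences was not tested. In bulk RNA, fewer cells of a type and less RNA per cell cannot be told apart.

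At 24 h the members did not move as a block. In hyperoxia 6 were higher and 9 lower than in normoxia, and 61 did not pass. The 15 called members are 19.7% of 76, against 28.3% of the 25419 genes tested. Their median log2 fold change was -0.01, against 0.01 for all genes tested. By the probe used for each gene the changes were small, from -0.46 to 0.53 on the log2 scale. No member reached 1.5-fold by that probe, and the 95% interval lay within 1.5-fold in either direction for 74 of 76. The second probe of Mrpl15, given below, went beyond 1.5-fold lower. Averaged over its probes, Mrpl15 was at -0.51. The interquartile range of the members' log2 fold changes was 0.26, against 0.42 for all genes tested. At an unadjusted p under 0.05 there were 26 members, against 38% of all genes tested. Higher calls made up 15.5% and lower calls 12.8% of all genes tested. Under quantile normalization 13 members were higher and 10 lower, so that 56.5% of calls were higher ones, against 40% here. These 23 are 30.3% of members, against 29% of all genes tested under that setting, so the lower share of members called here was not kept. The authors' table gave the same 2 shares. Under normexp background correction 10 were higher and 8 lower (23.7%, against 28.1% of all genes tested).

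**Figure D1:**
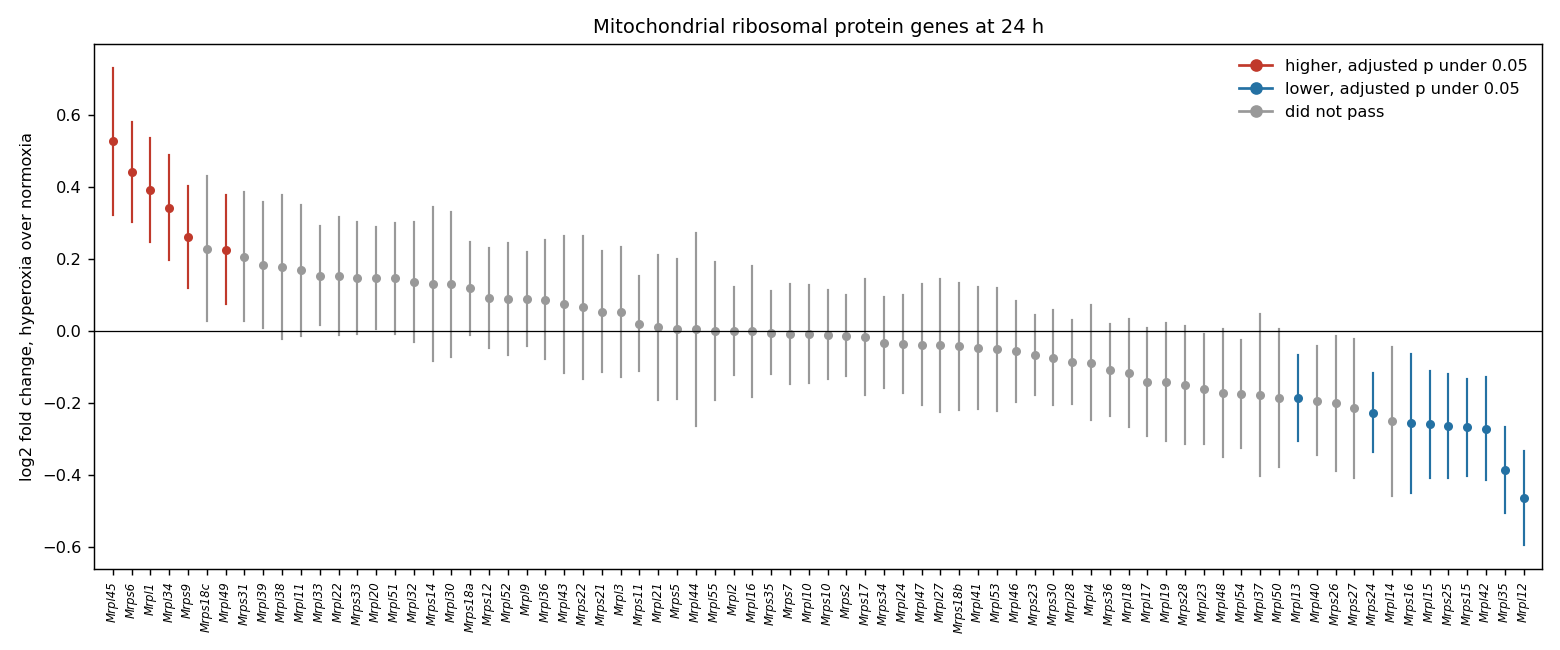
Log2 fold change of each of the 76 members at 24 h, hyperoxia over normoxia (points), with 95% intervals (lines), ordered from highest to lowest. The 6 members called higher (red) stand at the left, up to 0.53 for Mrpl45, and the 9 called lower (blue) reach -0.46 for Mrpl12.

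The most positive fold change was that of Mrpl45, whose protein lines the exit of the nascent chain tunnel and tethers the ribosome to the inner membrane. Its log2 levels at 24 h were 3.85, 3.80, 3.90 and 4.02 in hyperoxia, against 3.37, 3.28, 3.37 and 3.44 in normoxia. All 4 hyperoxia arrays lay above all 4 normoxia arrays. The log2 fold change was 0.53 ± 0.10 (SE, n = 4 each, limma adjusted p = 0.000734), which is 1.44-fold. At 6 h its levels were 3.56, 3.25, 3.79 and 3.43 in hyperoxia, against 3.37, 3.38, 3.49 and 3.48 in normoxia, and the groups overlapped, with the hyperoxia arrays the more scattered.

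Mrps6 encodes a small-subunit protein with a bacterial counterpart. Its log2 levels at 24 h were 4.87, 4.73, 4.98 and 4.80 in hyperoxia, against 4.40, 4.34, 4.44 and 4.43 in normoxia. The groups did not overlap, and the log2 fold change was 0.44 ± 0.06 (SE, limma adjusted p = 0.000118), or 1.36-fold. At 6 h its levels were 4.14, 4.21, 4.30 and 4.13 in hyperoxia, against 4.19, 4.26, 4.29 and 4.18 in normoxia, which lay in 1 narrow band.

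Mrpl1 encodes the protein of the mobile stalk beside the exit site for spent tRNA. At 24 h it read 0.98, 0.92, 0.85 and 0.93 in hyperoxia, against 0.55, 0.63, 0.39 and 0.54 in normoxia. Every hyperoxia array lay above every normoxia array, and the log2 fold change was 0.39 ± 0.07 (SE, limma adjusted p = 0.000499). At 6 h it read 0.55, 0.46, 0.68 and 0.42 in hyperoxia, against 0.66, 0.59, 0.70 and 0.65 in normoxia, and the groups overlapped.

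Mrpl34 encodes a small basic protein that, in bacteria, is buried in the RNA of the large subunit. Its log2 levels at 24 h were 3.74, 3.77, 3.71 and 3.74 in hyperoxia, against 3.38, 3.44, 3.30 and 3.46 in normoxia. The 4 hyperoxia arrays were tightly grouped above all normoxia arrays, with a log2 fold change of 0.34 ± 0.07 (SE, limma adjusted p = 0.00142). At 6 h they were 3.43, 3.41, 3.62 and 3.37 in hyperoxia, against 3.54, 3.51, 3.72 and 3.62 in normoxia, with overlap.

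The other members called higher were Mrps9, at 2.33 ± 0.08 in hyperoxia and 2.06 ± 0.02 in normoxia (log2 level, SD, n = 4 each), and Mrpl49, at 1.99 ± 0.13 in hyperoxia and 1.76 ± 0.09 in normoxia. Their log2 fold changes were 0.26 (limma adjusted p = 0.00796) and 0.23 (limma adjusted p = 0.0255). Mrps9 is the counterpart of a bacterial protein that reaches the tRNA in the peptidyl site, and Mrpl49 is a protein specific to mitochondria. Mrpl49 has a second probe, which gave -0.14 (limma adjusted p = 0.305), and its call was lost when its probes were averaged.

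Among the probes used, the most negative fold change was that of Mrpl12. Its protein forms the flexible stalk that receives translation factors and has also been found with the mitochondrial RNA polymerase. The log2 levels of Mrpl12 at 24 h were 4.16, 4.38, 4.33 and 4.23 in hyperoxia, against 4.74, 4.67, 4.74 and 4.81 in normoxia. No hyperoxia array reached the lowest normoxia array, and the log2 fold change was -0.46 ± 0.06 (SE, limma adjusted p = 4.7e-05), or 1.38-fold lower. At 6 h its levels were 4.65, 4.79, 4.80 and 4.74 in hyperoxia, against 4.72, 4.79, 4.79 and 4.78 in normoxia, which is where the 24 h normoxia arrays also lay.

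Mrpl35, another large-subunit gene with a bacterial counterpart, read -1.56, -1.52, -1.66 and -1.70 at 24 h in hyperoxia, against -1.22, -1.21, -1.30 and -1.17 in normoxia. All hyperoxia arrays were lower than all normoxia arrays, with a log2 fold change of -0.39 ± 0.06 (SE, limma adjusted p = 0.000104). At 6 h it read -1.08, -1.03, -1.03 and -0.96 in hyperoxia, against -0.99, -0.97, -0.98 and -0.98 in normoxia. These 6 h groups overlapped, and all 8 arrays lay above the 24 h arrays.

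A further 7 members were called lower. Mrpl42, specific to mitochondria, was at 1.52 ± 0.05 in hyperoxia and 1.79 ± 0.04 in normoxia (log2 level, SD, n = 4 each). Mrps15, whose bacterial counterpart binds the central domain of the small ribosomal RNA, was at 2.65 ± 0.06 in hyperoxia and 2.92 ± 0.07 in normoxia. Mrps25, specific to mitochondria, was at 3.46 ± 0.05 in hyperoxia and 3.72 ± 0.07 in normoxia. Their log2 fold changes were -0.27 for Mrpl42 (limma adjusted p = 0.00697), -0.27 for Mrps15 (0.0049) and -0.26 for Mrps25 (0.00914).

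Mrpl15 was at 3.28 ± 0.08 in hyperoxia and 3.54 ± 0.05 in normoxia, a log2 fold change of -0.26 (limma adjusted p = 0.0119). It was the 1 member of several tested probes whose probes were all called at 24 h, the second probe giving -0.77 (limma adjusted p = 2.3e-05). Named after their values were seen, the remaining called members were Mrps24 (-0.23, limma adjusted p = 0.00391), Mrps16 (-0.26, 0.0473) and Mrpl13 (-0.19, 0.0216). Mrps16 is a gene whose human counterpart is mutated in a respiratory chain deficiency. Its call was lost with the replicate number as a block (adjusted p = 0.055 over both slides and 0.0892 within each slide), without 7 of the 8 arrays in turn, under normexp background correction and median scaling, and with no filter on dim probes (adjusted p = 0.0748).

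**Figure D2:**
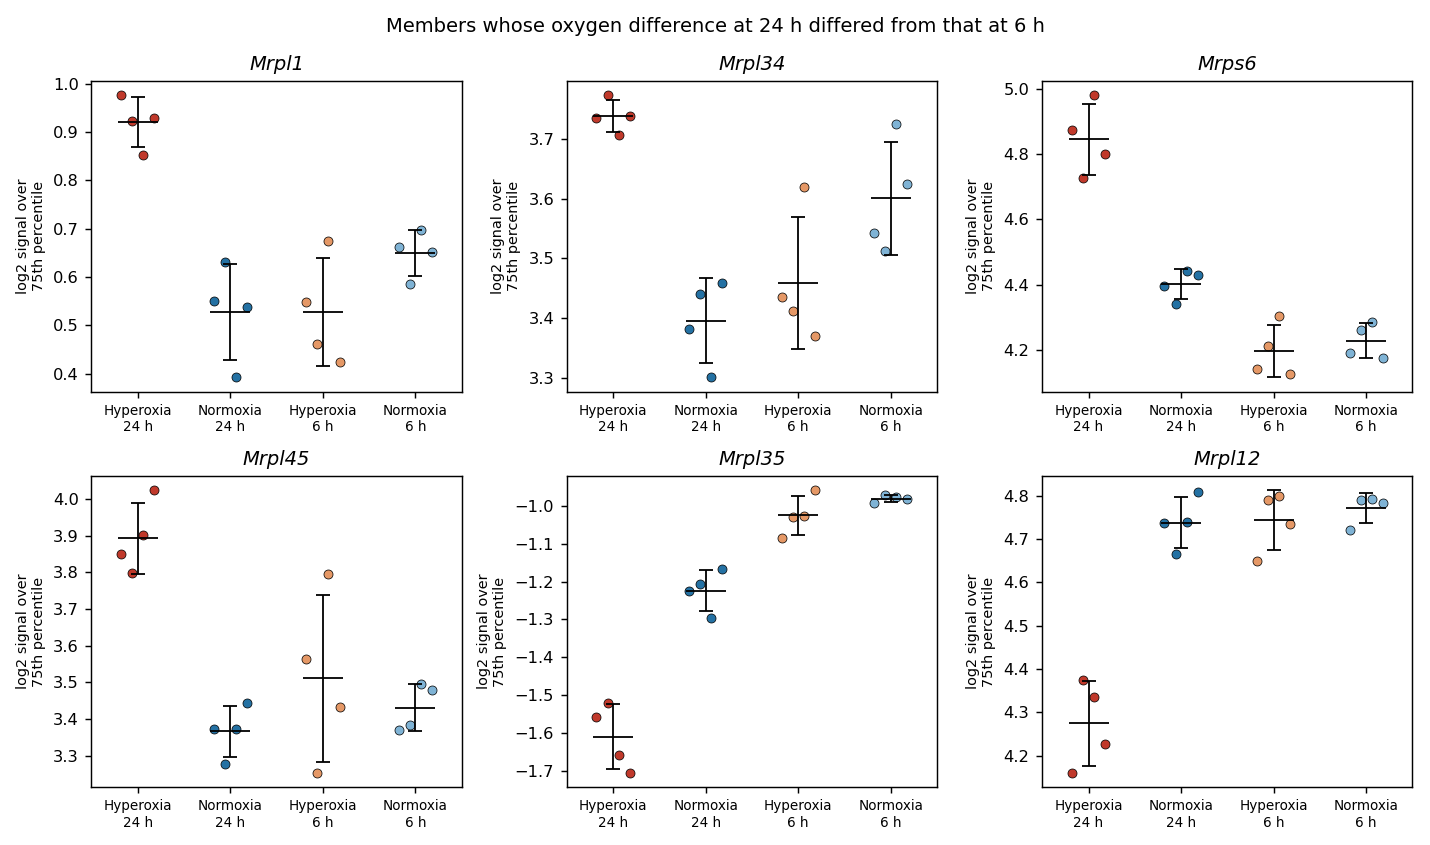
Log2 level on each array (points, 4 per group) of the 6 members whose oxygen effect differed between the times, with the group mean and SD (bars), for hyperoxia and normoxia at 24 h and at 6 h. Each panel has its own axis, which does not start at 0. In all 6 panels the 4 hyperoxia arrays at 24 h lie apart from the 4 normoxia arrays at 24 h, while the 6 h groups overlap.

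Of the 15 called members, 12 kept their call in each of 8 fits that left out 1 array and under 11 other settings. Mrpl13, Mrpl49 and Mrps16 did not. All 15 had hyperoxia and normoxia arrays that did not overlap, and so did 17 members that did not pass. These 32 of 76 are a larger share than the 33.2% of all genes tested whose groups did not overlap. By calls the order was the other way, 19.7% of members against 28.3% of all genes tested. Neither difference was tested.

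Both subunits held calls in either direction. Of 49 large-subunit members, 4 were higher (8.16%) and 5 lower (10.2%). Of 26 small-subunit members, 2 were higher (7.69%) and 4 lower (15.4%), and of all genes tested 15.5% were higher and 12.8% lower. The median log2 fold change was -0.01 in both subunits. Members with a bacterial counterpart had 4 higher and 7 lower of 45, those specific to mitochondria 2 higher and 2 lower of 27, and the 3 Mrps18 paralogues had none. Mrps36 did not pass, at -0.11. No test of one class against another was made.

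Probes of the same gene did not always move together. Tested probes numbered 105, and 26 genes had several. At 24 h 6 genes had some probes called and others not, among them Mrps14, where the probe used here gave 0.13 (limma adjusted p = 0.38, over all probes tested) and another gave -0.39 (limma adjusted p = 0.00688). For Mrps7 the values were -0.01 (limma adjusted p = 0.951) and -0.25 (limma adjusted p = 0.0411). For Mrpl30 they were 0.13 (limma adjusted p = 0.357) and 0.20 (limma adjusted p = 0.0359). The Mrpl30 probe used here is placed on chromosome 11 and the other on chromosome 1 in the files' own annotation (mm9). These 3 were named after their values were seen.

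**Figure D3:**
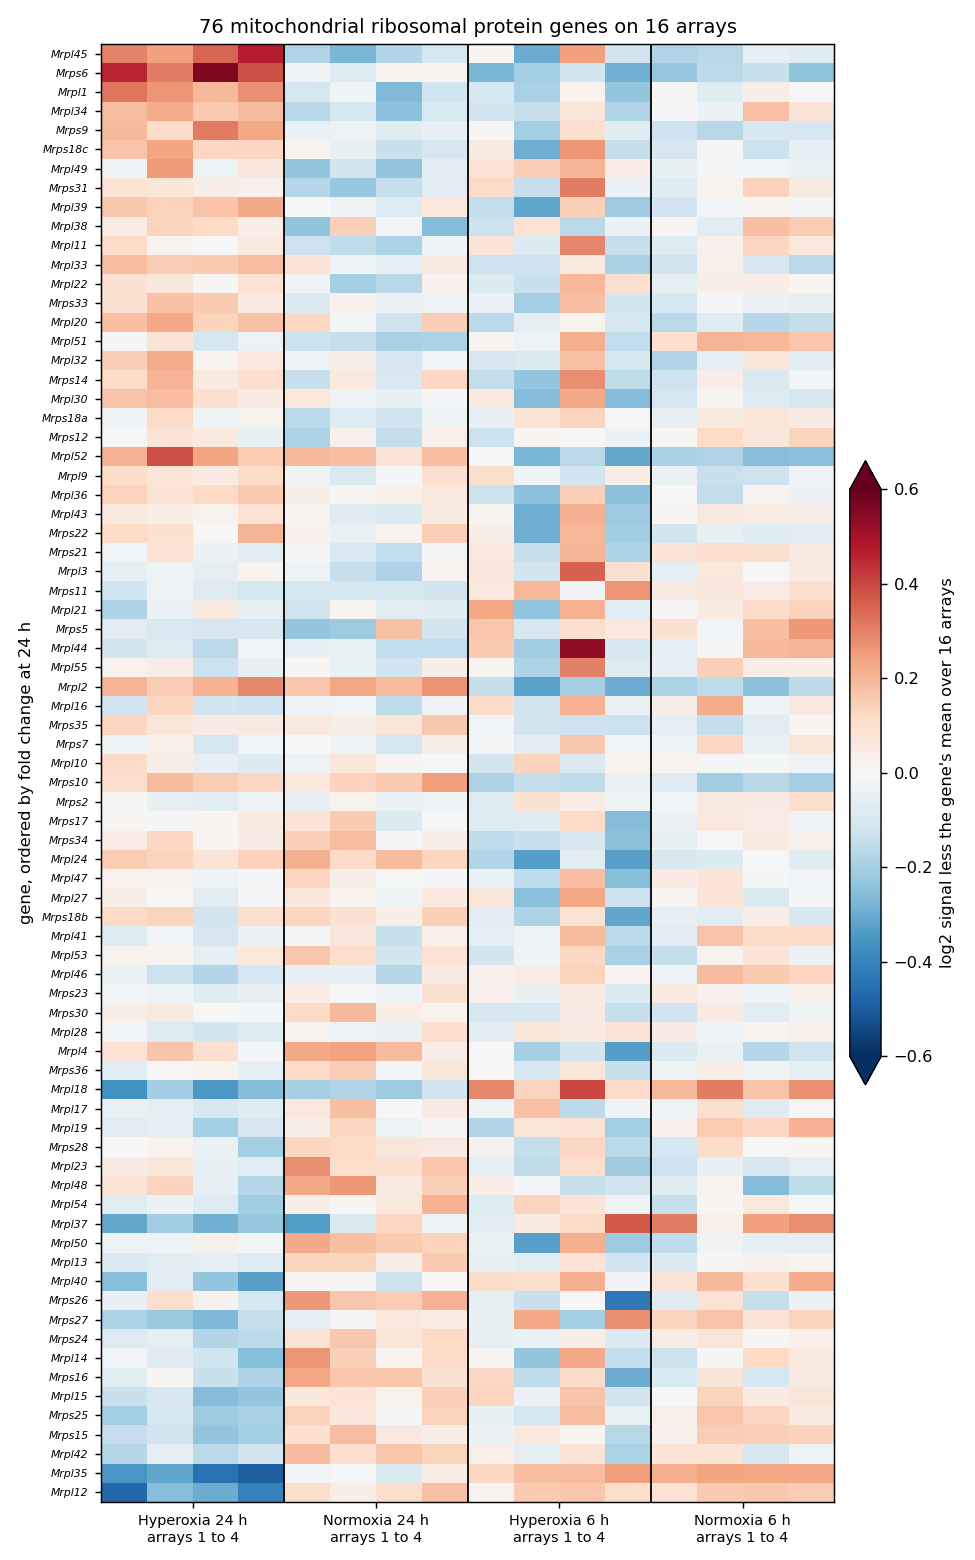
Log2 level of the 76 members (rows, ordered by fold change at 24 h) on the 16 arrays (columns, in 4 groups of 4), as the difference from each gene's mean over the arrays. The 24 h hyperoxia and normoxia columns differ at the top and bottom rows, and the third 6 h hyperoxia array is higher than its neighbours over many rows, its median member level being 3.78 against 3.51 to 3.59 in the other 3.

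At 6 h no member differed between hyperoxia and normoxia in limma's test, against 0.327% of all genes tested. At an unadjusted p under 0.05 there were 5 of 76, against 7.38% of all genes tested. Log2 fold changes ran from -0.18 to 0.15 with a median of -0.03, against 0.01 for all genes tested. The 95% interval lay within 1.5-fold for all 76. The groups did not overlap for Mrps34 (-0.17) and Mrpl49 (0.15), 2 members against 4.32% of all genes tested. With array weights 1 member was called lower (1.32% of members, against 2.23% of all genes tested).

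The median level of the 76 members per array averaged 3.74 ± 0.04 in hyperoxia and 3.70 ± 0.05 in normoxia at 24 h, and 3.61 ± 0.12 in hyperoxia and 3.67 ± 0.04 in normoxia at 6 h (SD, n = 4 each). The ranges of hyperoxia and normoxia overlapped at both times.

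Whether the oxygen effect itself differed between the times was tested as the effect at 24 h less that at 6 h. It differed for 6 members (7.89% of 76), against 12.3% of all genes tested, 4 with a more positive effect at 24 h (6.64% of all genes tested) and 2 with a more negative one (5.64%). The difference was 0.51 ± 0.10 for Mrpl1 (SE, limma adjusted p = 0.00269), 0.49 ± 0.10 for Mrpl34 (0.00397) and 0.47 ± 0.09 for Mrps6 (0.00342). For Mrpl12 it was -0.43 ± 0.09 (SE, limma adjusted p = 0.00408) and for Mrpl35 -0.34 ± 0.08 (0.0103). Mrpl45, named after its value was seen, had 0.45 ± 0.13 (SE, limma adjusted p = 0.0438), and lost its call in 14 of 16 fits that left out 1 array. Without the third 6 h hyperoxia array 7 members were called more positive and 2 more negative. That is 11.8% of members, against 19.6% of all genes tested in that fit. Mrpl35 lost its call under normexp background correction (-0.22, adjusted p = 0.0568). The calls of Mrpl1, Mrpl34, Mrps6 and Mrpl12 held in all 16 fits and 10 other settings.

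**Figure D4:**
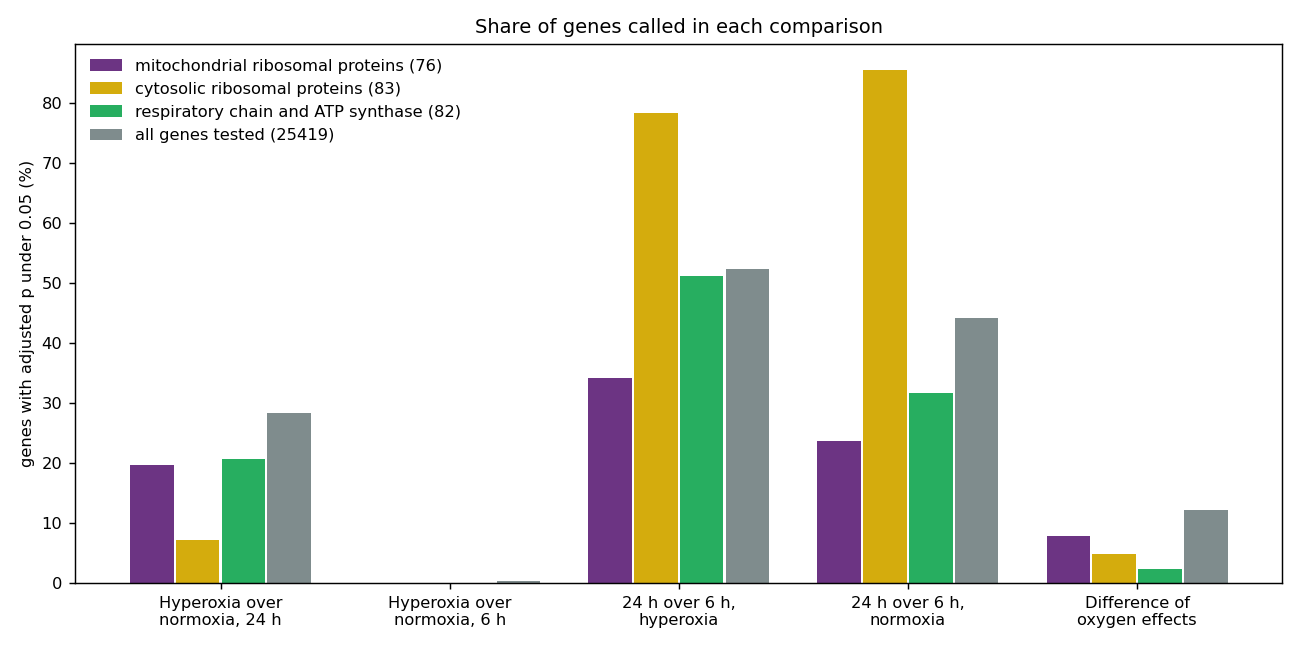
Share of genes with a limma adjusted p under 0.05 (bars, %) among the mitochondrial ribosomal protein genes, the cytosolic ribosomal protein genes, the nuclear genes of the respiratory chain and ATP synthase, and all genes tested, in 5 comparisons. The members' bars, at 19.7, 0, 34.2, 23.7 and 7.89%, are below those of all genes tested in each comparison at the 75th percentile scaling shown, an order that other scalings changed for 3 of the 5.

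Between the times, in hyperoxia, 16 members were higher at 24 h than at 6 h and 10 were lower (34.2% called, against 52.3% of all genes tested, 25% higher and 27.3% lower). In normoxia 12 were higher and 6 lower (23.7% called, against 44.2%, 20.6% higher and 23.5% lower). The median log2 fold change was 0.01 in hyperoxia and 0.02 in normoxia, against -0.02 for all genes tested in each. These counts hang on the scaling. Scaling arrays to their median in place of the 75th percentile raised the median of all genes tested to 0.20 in hyperoxia and 0.19 in normoxia, and gave 43 members higher and 3 lower in hyperoxia and 43 higher and 1 lower in normoxia. That is 60.5% of members called in hyperoxia, against 58.6% of all genes tested, and 57.9% in normoxia, against 53.2%, so the order of members and all genes was turned round. Under quantile normalization 14 were higher and 15 lower in hyperoxia, and 7 higher and 16 lower in normoxia (38.2% of members against 47.4% of all genes tested in hyperoxia, 30.3% against 39.3% in normoxia). Higher calls were thus 61.5% of calls here, 93.5% by the median and 48.3% by quantiles in hyperoxia, and 66.7, 97.7 and 30.4% in normoxia. Relative to the median of all genes, the members' median stood 0.03 higher in hyperoxia and 0.04 higher in normoxia under both array scalings. Each scaling takes the same amount from all values of an array, so these offsets could not differ between them. Under quantile normalization the members' median stood -0.03 and -0.04 from that of all genes. Under normexp background correction it stood -0.06 from it in hyperoxia and -0.13 in normoxia.

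Marker sums moved with time as well. The type II sum in hyperoxia was 28.8 to 35.7 at 24 h, against 55.0 to 79.4 at 6 h, and in normoxia 38.8 to 44.3 at 24 h, against 58.9 to 72.9 at 6 h. The fibroblast and smooth muscle sum in hyperoxia was 1408 to 1536 at 24 h, against 841 to 1103 at 6 h, and in normoxia 1543 to 1779 at 24 h, against 896 to 1056 at 6 h. The club and ciliated sum in hyperoxia was 1.53 to 1.75 at 24 h, against 23.7 to 47.8 at 6 h, and in normoxia 0.913 to 1.39 at 24 h, against 22.9 to 46.6 at 6 h. The leukocyte sum in hyperoxia was 122 to 125 at 24 h, against 76.6 to 80.9 at 6 h, and in normoxia 103 to 120 at 24 h, against 71.3 to 82.4 at 6 h. The endothelial sum in hyperoxia was 16.7 to 19.2 at 24 h, against 11.5 to 14.4 at 6 h, and in normoxia 14.4 to 18.4 at 24 h, against 12.1 to 14.2 at 6 h. No such pair of ranges overlapped, except that those of the type I markers did in both oxygen levels, and their part in the members' time differences was not tested. Markers within a sum did not all move the same way. In hyperoxia the leukocyte marker Itgam averaged 6.08 at 24 h and 4.53 at 6 h (log2 level), while Cd14 averaged 1.54 and 2.22. Csf3r, also bright, averaged 5.72 and 5.62, so the rise of the leukocyte sum rested mainly on Itgam. Marco averaged -0.97 and -0.39, and Ptprc, the dimmest of them, -4.38 and -4.54. The endothelial marker Kdr averaged 4.14 and 3.71, and Pecam1 -2.75 and -2.67. Of the type II markers, Sftpc averaged 1.84 and 4.34, and Etv5 2.58 and 2.47. The overlap of the type I sums did not mean steady markers, since Pdpn, by far the brightest, averaged 5.90 and 5.62. Ager averaged -1.45 and 0.51, Hopx -1.86 and -0.38, and Aqp5 2.01 and 3.65. In normoxia Pdpn averaged 5.95 and 5.70, Ager -1.43 and 0.09, Hopx -2.03 and -0.65, and Aqp5 2.24 and 3.62.

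Single arrays moved the members' counts too. In hyperoxia, 26 members were higher without the third 6 h array, and 6 were lower without the third 24 h array. In all, 44.7 and 30.3% of members were called in these fits, against 53.8 and 46.1% of all genes tested. In normoxia, 7 were higher without replicate 1 or 4 at 24 h or replicate 1 at 6 h. There, 3 were lower without replicate 1 at 24 h or replicate 3 or 4 at 6 h. These normoxia fits called 13.2 to 18.4% of members, against 36.9 to 40.8% of all genes tested.

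Some members held their direction under each of these scalings. Mrps6 averaged 4.84 ± 0.11 at 24 h and 4.20 ± 0.08 at 6 h in hyperoxia (log2 level, SD, n = 4 each), a log2 fold change of 0.65 (limma adjusted p = 2.23e-06). In normoxia its value was 0.17 (limma adjusted p = 0.041). That call was lost under normexp background correction and quantile normalization, in the authors' table and without the dim-probe filter. It was also lost in 6 of 8 fits that left out 1 array. Mrpl2, whose bacterial counterpart lies near the peptidyl transferase centre, averaged 5.01 ± 0.06 at 24 h and 4.56 ± 0.08 at 6 h in hyperoxia, and 5.01 ± 0.05 at 24 h and 4.61 ± 0.04 at 6 h in normoxia. Its log2 fold change was 0.45 in hyperoxia and 0.40 in normoxia. The 24 h arrays of Mrpl2 lay above the 6 h arrays in both oxygen levels.

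Mrpl52, specific to mitochondria, rose by 0.43 in hyperoxia and 0.38 in normoxia on the log2 scale. Mrps10, with a bacterial counterpart, averaged 3.81 ± 0.08 at 24 h and 3.50 ± 0.06 at 6 h in normoxia, a log2 fold change of 0.32. Mrpl18, whose bacterial counterpart binds the 5S ribosomal RNA, averaged 3.40 ± 0.07 at 24 h and 3.93 ± 0.14 at 6 h in hyperoxia, and 3.52 ± 0.04 at 24 h and 3.93 ± 0.06 at 6 h in normoxia. It fell by 0.53 in hyperoxia and by 0.42 in normoxia on the log2 scale. Mrpl18 kept its call under quantile normalization, normexp background correction and median scaling in both oxygen levels.

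Mrpl35 had the lowest time difference in hyperoxia, at -0.59 ± 0.06 (SE, limma adjusted p = 1.42e-06), and -0.27 under normexp background correction. Mrpl12 had -0.47 ± 0.06 in hyperoxia, and -0.25 under median scaling. In normoxia Mrpl51 had -0.33 and Mrpl37 -0.30, and neither passed under median scaling (-0.12 and -0.09). Leaving out the first 24 h normoxia array took Mrpl37 to -0.21, without a call.

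The hyperoxia and the normoxia time comparisons share no array. Both set the 24 h slide against the 6 h slide, so slide and time cannot be told apart in either. Of the members called higher, 8 were in both lists (50% of the 16 and 66.7% of the 12), and of those called lower 4 were in both (40% of the 10 and 66.7% of the 6). Among all genes tested, 25% were higher and 27.3% lower in hyperoxia, and 20.6% and 23.5% in normoxia. Their overlap was not counted, so the members' overlap cannot be set against it. Mrpl34 was called in opposite directions, 0.28 in hyperoxia and -0.21 in normoxia, although its normoxia value was 0.00 under median scaling.

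Mrpl50 was the member whose probes were called in opposite directions. Between 24 h and 6 h in normoxia the probe used here (mm9, chr4:49525602-49525661, minus strand) gave 0.25 (limma adjusted p = 0.0418 over all probes) and the other (mm9, chr4:49527089-49527148, minus strand) gave -0.29 (0.0279). The mean of both probes gave -0.02, and the probe used here lost its call in each of 8 fits that left out 1 array, so the direction of Mrpl50 over time was not settled.

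The rest of the machinery that builds and serves this ribosome was set beside it at 24 h by list. Cytosolic ribosomal protein genes, which make the ribosome of the cytosol, had 3 higher and 3 lower of 83. Nuclear genes of the respiratory chain and ATP synthase had 15 higher and 2 lower of 82, with a median log2 fold change of 0.06. The 13 proteins that mitochondrial DNA encodes, which are what this ribosome makes, had none called in limma's test and 1 at an unadjusted p under 0.05. Their log2 fold changes ran from -0.36 to 0.21. This last list was added after the files were seen.

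**Figure D5:**
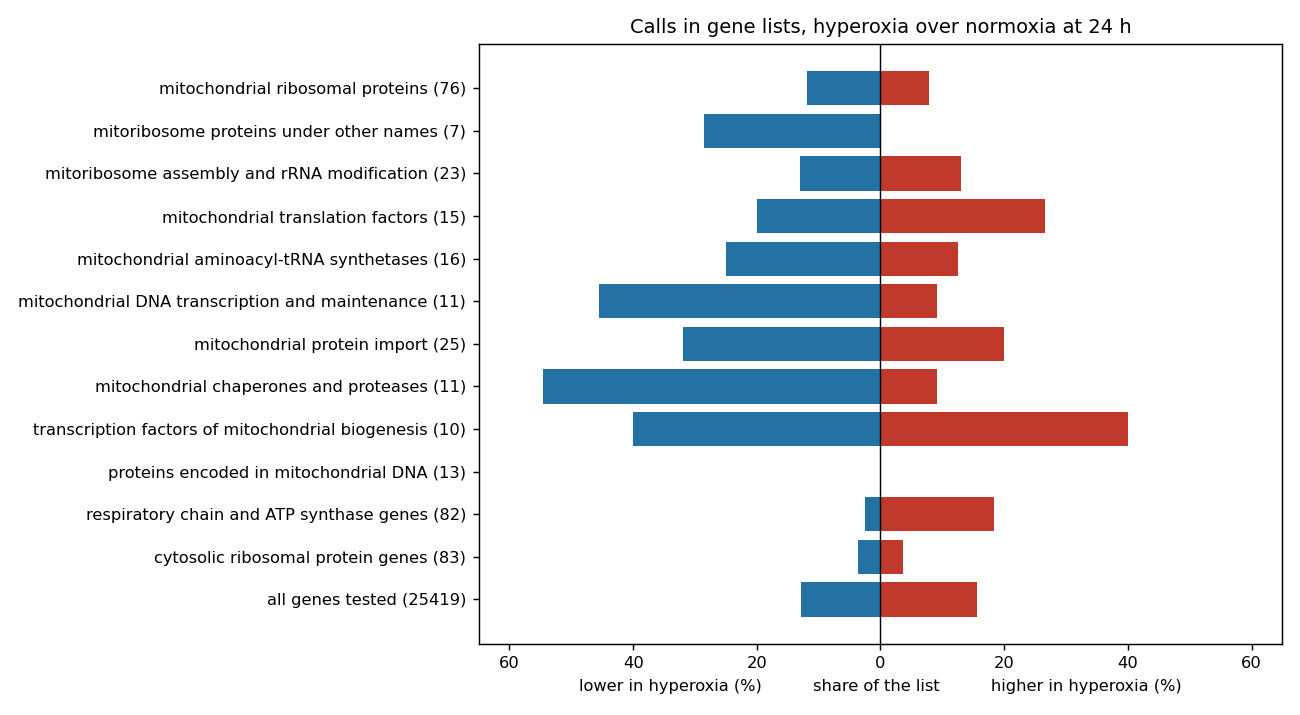
Share of each gene list called lower (blue, to the left) and higher (red, to the right) in hyperoxia against normoxia at 24 h, with the number of tested genes in brackets. The members had 7.89% higher and 11.8% lower, against 15.5% higher and 12.8% lower of all genes tested.

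Ribosome proteins under other names had none higher and 2 lower of 7. They were Gadd45gip1 (-0.27, limma adjusted p = 0.00595) and Ptcd3 (-0.26, 0.0122), subunits of the large and of the small side. Factors of ribosome assembly and ribosomal RNA modification had 3 higher and 3 lower of 23, with Mterfd2 (0.40), which targets an RNA methyltransferase to the ribosome, and Tfb1m (-0.31), a methyltransferase of the small ribosomal RNA. Translation factors had 4 higher and 3 lower of 15, with Lrpprc (-0.32), which stabilises mitochondrial messenger RNA, and Mtrf1 (0.32), a release factor relative. Aminoacyl-tRNA synthetases had 2 higher and 4 lower of 16, with Cars2 (-0.48) for cysteine and Iars2 (0.31) for isoleucine.

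Genes of mitochondrial DNA transcription and maintenance had 1 higher and 5 lower of 11, with Polg, the DNA polymerase (-0.42, limma adjusted p = 0.00018), and Elac2, which trims tRNA ends (-0.40). Protein import had 5 higher and 8 lower of 25, with Timm8a1 (-0.76, limma adjusted p = 4.68e-07) and Timm50 (-0.43), a receptor of the inner membrane translocase. Chaperones and proteases had 1 higher and 6 lower of 11, with the matrix protease Lonp1 (-0.85, limma adjusted p = 1.51e-05) and Htra2, a protease of the intermembrane space (-0.48). Both values are lower than that of any member by the probe used here. Averaged over its probes, however, Mrpl15 was at -0.51, lower than Htra2.

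Transcription factors and coactivators of mitochondrial biogenesis had 4 higher and 4 lower of 10. The largest values were those of Ppargc1a, the coactivator PGC-1alpha (1.48, limma adjusted p = 0.000584), and Esrra, a nuclear receptor that works with it (0.57). Genes of the factors whose letters were searched in the promoters were also among the calls, named here for that reason after their values were seen. Nrf1 was at 0.38 (limma adjusted p = 0.000338), Yy1 at 0.42 (0.00716) and Gabpa at -0.39 (0.0285).

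Over time, the cytosolic ribosomal protein genes differed from the members in their counts. In hyperoxia 62 of 83 were higher and 3 lower at 24 h than at 6 h, and in normoxia 69 were higher and 2 lower, with medians of 0.25 and 0.27, while those of the members were 0.01 and 0.02. The 13 genes of mitochondrial DNA had 7 higher and none lower in hyperoxia, and 9 higher and none lower in normoxia. All genes tested had 25% higher and 27.3% lower in hyperoxia, and 20.6% higher and 23.5% lower in normoxia. These counts use the 75th percentile, the list difference was not tested, and slide and time cannot be told apart here either.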

How the data were processed

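Expression was measured on 16 one-colour arrays, 4 per oxygen and time group, grouped by the sample labels. The authors deposited Feature Extraction 10.7.3.1 files, and per the file headers their processed intensity had the background removed and spatial trends corrected on each array by itself. The authors also deposited 1 table of log2 values (43964 probes, median 7.19 on every array), whose normalization is not given in the sources used here. It was used as an alternative.

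Spots of a probe were averaged and log2 signals were set to each array's 75th percentile. A gene was tested where 3 or more of the 4 arrays in any group read it well above background (25419 genes). limma 3.58.1 in R 4.3.3 fitted 1 mean per group, two-sided, with Benjamini-Hochberg adjustment over all genes tested, and probes were adjusted over all 36713 probes tested. The code was tested on simulated data.

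The NRF1 and YY1 motifs were searched in shortened form. Members and gene lists were chosen with earlier results of these data known. Values are given for the 6 called members with the largest change in each direction between oxygen levels, the 3 largest in each direction for the other contrasts, the largest of each role, members with opposed probes, and the 2 largest called genes per list.

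Replicate numbers come from the sample labels. Residuals of same-numbered arrays of hyperoxia and normoxia correlated at 0.244 to 0.344 at 24 h, over 0.1 for every pair, and at 0.0863 to 0.354 at 6 h. The number also matches the slide column. Alternatives were background correction, scaling, the authors' table, dim-probe filters, probe averaging, replicate blocks, array weights, fewer groups and each array left out.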

Additional observations from a re-analysis of the deposited data

Results flagged for a closer look

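Among members named by the rule, 3 values stood apart from the other arrays of their group by Dixon's test, among 80 groups tested, of which chance marks about 1 in 20. Mrpl12 was at 4.72 in normoxia at 6 h replicate 1, against 4.78 to 4.79 in the other 3 arrays. Mrps15 was at 2.85 on the same array, against 2.96 to 2.97. Mrpl52 was at 6.36 in normoxia at 24 h replicate 3, against 6.47 to 6.48.

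The hyperoxia effect at 24 h differed from that at 6 h by limma's interaction test for 6 members. The differences on the log2 scale were 0.51 for Mrpl1, 0.49 for Mrpl34, 0.47 for Mrps6, 0.45 for Mrpl45, -0.34 for Mrpl35 and -0.43 for Mrpl12. Mrpl45 lost its call in 14 of 16 fits that left out 1 array, under median scaling and without the dim-probe filter. Mrpl35 lost its call under normexp background correction.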

How the results depend on the processing

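The filter on dim probes removed no member, but Mrpl35, the dimmest, moved with the background correction. Its oxygen effect at 24 h was -0.39 here and -0.26 with normexp, and its call for the difference of the oxygen effects was lost. The time comparison rests on the scaling and on slides that go with time. Between oxygen levels at 24 h, the members called higher numbered 10 with normexp, 13 with quantile normalization, 13 in the authors' table and 10 with array weights, and those called lower 14 with array weights. In that order 23.7, 30.3, 30.3 and 31.6% of members were called, against 28.1, 29, 29 and 34% of all genes tested. At 6 h 1 was lower with array weights (1.32% of members, against 2.23% of all genes tested). For 24 h against 6 h in hyperoxia, median scaling gave 43 higher, 3 lower and a median of 0.23, array weights 28 higher, and a fit of its own groups only 5 lower. Members called were 60.5, 50 and 23.7% in that order, against 58.6, 57.8 and 47% of all genes tested. In normoxia the higher ones were 5 with normexp, 7 with quantile normalization, 7 in the authors' table, 7 without the dim-probe filter and 43 with median scaling. The lower ones were 10, 16 and 16 in the first 3 of these, 15 with array weights and 1 with median scaling, whose median was 0.23. Members called were 19.7% with normexp, 30.3% with quantile normalization and in the authors' table, and 15.8% without the dim-probe filter. All genes tested had 47.8, 39.3, 39.3 and 33.6% in that order. Median scaling gave 57.9% of members against 53.2% of all genes tested, and array weights 40.8% against 53.5%. The difference of the oxygen effects had 1 lower with normexp and 11 higher with array weights. In all, 6.58% of members were called with normexp, against 13% of all genes tested, and 17.1% with array weights, against 22.6%. Mrpl50 in normoxia over time turned to -0.0226 with averaged probes, and Mrpl34 to 0.00384 with median scaling. Among calls outside the named values, Mrpl15, Mrps11, Mrps25 and Mrpl46 in hyperoxia over time changed sign under 1 other setting each. So did Mrps11 in normoxia over time. The cause of these changes was not tested.

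Leaving out 1 array gave 5 to 7 higher and 7 to 10 lower at 24 h, 15 to 26 higher and 6 to 9 lower over time in hyperoxia, 7 to 9 higher and 3 to 7 lower in normoxia, and 3 to 7 higher and 2 lower for the difference. Members called in these fits were 15.8 to 19.7% at 24 h, against 23.8 to 25.6% of all genes tested. Over time they were 30.3 to 44.7% against 46.1 to 53.8% in hyperoxia, and 13.2 to 19.7% against 36.9 to 40.8% in normoxia. For the difference they were 6.58 to 11.8% against 9.77 to 19.6%. With the replicate block, over both slides or within each slide, the counts were 6 higher and 9 lower at 24 h, 0 at 6 h, and 4 higher and 2 lower for the difference. At 24 h that is 19.7% of members, against 29.5 and 33.4% of all genes tested. For the difference it is 7.89%, against 13 and 16.5%. The block took only the call of Mrps16 among the 15 called at 24 h. Of named values, 355 kept direction and call under settings other than leaving out an array, 18 lost the call and 2 reversed. In fits without 1 array, 290 kept both and 46 lost the call.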
